A study of Mus musculus with 6 samples.

Results

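The inositol polyphosphate phosphatases are enzymes that strip phosphate groups from inositol phospholipids of cell membranes or from soluble inositol phosphates. The genes described are Inpp5b, Ocrl, Inpp5a, Inpp5d, Inppl1, Synj1, Synj2, Inpp5k, Inpp5e and Inpp4b, which were found by their symbols and made up 10 of the 23345 genes measured. Inpp5b was chosen by its normalized counts, which were higher under a high-fat diet, so its values by diet are given as a description and without a test. The other 9 were listed as relatives of Inpp5b. Messenger RNA came from lung endothelial cells, the lining cells of blood and lymph vessels, of C57BL/6JOlaHsd mice. One group of mice had eaten a high-fat diet (HFD) for 3 months and the other a normal diet (ND) for the same time, stated elsewhere in the labels as 12 weeks. There were 3 HFD libraries, from mice numbered 2, 4 and 5, and 3 ND libraries, from mice numbered 1, 3 and 4, each made from 500 cells. In both groups the cells had been grown on coated plates, cleared of cells with CD16/CD32, collected with beads against ICAM-2 and plated once more on collagen I, so the transcripts are those of cells that had spent time in culture.

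Phosphoinositides are membrane lipids whose inositol ring carries phosphates at different positions, and each pattern of phosphates recruits its own proteins. The 5-phosphatases remove the phosphate at position 5 of the ring. Depending on the enzyme, this lowers the lipid made by PI3-kinase that activates AKT, the plasma membrane lipid needed for clathrin-coated vesicles, or soluble inositol trisphosphate, which releases calcium from stores. In endothelium the same lipids take part in signalling from growth factor receptors, in calcium signals and in membrane traffic. Inpp4b stands apart in the list, since it removes the phosphate at position 4.

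The 9 genes for 5-phosphatases were compared over a short stretch of coding sequence. Their catalytic domain contains a short signature, and the 21 bases of coding sequence that specify 7 residues of it were found once in each of the 9 coding sequences and not in that of Inpp4b. They are shown to let the relatives be compared at the active site, 5′ to 3′ on the coding strand, from GENCODE M21 transcripts of the GRCm38 mouse genome. Capitals mark the 3 codons that specify the same amino acid in all 9. The pattern used to find the stretch fixed these 3 residues and limited the choice at the others, so this identity was set in advance.
Inpp5b: CCGgcctggtgtGACCGAatc
Ocrl: CCCgcctggtgtGACCGAatt
Inpp5d: CCGtcctggtgcGACCGAgtc
Inpp5a: CCTgcttggtgtGATCGCatc
Inpp5k: CCTgcgtggactGACCGCatc
Inppl1: CCTtcgtggtgtGACCGGatt
Synj1: CCTgcttggacaGACCGTgtc
Inpp5e: CCCtcctacacaGACCGAgtc
Synj2: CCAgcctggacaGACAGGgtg

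Ocrl was the gene closest to Inpp5b in this stretch, with 2 of 21 bases different. Inpp5d differed from Inpp5b at 3 bases, Inpp5a at 4, Inpp5k and Inppl1 at 5, Synj1 at 7, and Inpp5e and Synj2 at 8. The Inpp5b stretch lies on chromosome 4 from 124789085 to 124789105, inside 1 exon. Over whole transcripts the 10 genes were distinct, as 0 stretches of 50 bases were common to any pair of them, so a read of that length without errors could not have been assigned to another of the 10.

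Library depth was 18.8 to 27.9 M reads in HFD, against 13.8 to 17.2 M reads in ND. Every HFD library was deeper than every ND library. Values below are read counts that the authors divided by a size factor per library, called normalized counts. The 12 endothelial markers summed to 172527 to 205744 normalized counts in HFD and 134923 to 174931 in ND, and none of the 12 lacked reads. ND 3 stood apart in transcripts of other cell types. Its 14 epithelial markers summed to 103969 normalized counts, against 4503 to 18951 in the other libraries, and its 11 white blood cell markers to 6605, of which Lyz2 gave 6388, against 180 to 399 elsewhere. Of 20 listed white blood cell markers these 11 were in the table and the others were not analysed here. Of the epithelial and white blood cell markers in the table, 0 lacked reads in every library, and Lyz2 had 0 reads in HFD 4 and in ND 1. Results for each gene are therefore also given without ND 3 where that turned the direction.

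Inpp5b encodes a 5-phosphatase of endosomes and the early secretory pathway that binds Rab GTPases. Inpp5b transcript had 2814, 3239 and 2892 normalized counts in HFD 2, HFD 4 and HFD 5, against 313, 602 and 729 in ND 1, ND 3 and ND 4. All 3 HFD libraries lay above all 3 ND libraries, and the HFD libraries lay close together. The highest HFD value was 1.15 times the lowest, whereas the highest ND value was 2.33 times the lowest. The mean was 2982 ± 226 normalized counts in HFD and 548 ± 213 in ND (SD, n = 3 each), a ratio of 5.44. On the log2(normalized count + 1) scale the difference of HFD minus ND was 2.53 ± 0.38 (SE). Leaving out each library in turn gave a difference of 2.17 to 2.77, with 2.64 without ND 3. Genes were tested where their mean over the 6 libraries reached 10 normalized counts. Of these 15655 genes, 8.12% were likewise higher in HFD without overlap, and since Inpp5b was picked for this pattern nothing is read from it. In bulk RNA, a change in the number of cells that make a transcript and a change in the amount per cell cannot be told apart.

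Levels of marker genes are given beside those of Inpp5b, although limma called 0 genes in each marker list. Icam2, which encodes the protein used to collect the cells, had 22005, 21851 and 25569 normalized counts in HFD 2, HFD 4 and HFD 5, against 16169, 19643 and 14073 in ND 1, ND 3 and ND 4. These groups did not overlap. Of the 12 endothelial markers, 4 were higher in HFD without overlap, Icam2 among them, as were 8.12% of all tested genes. Another 1 of the 12 was lower without overlap, as were 5.93% of all tested genes. By sign alone, 7394 of all 15655 tested genes were lower in HFD and 8261 higher. Markers of lymphatic endothelium were lower in HFD for 7 of 7 tested genes, 2 of them without overlap, and their summed level was 4866 to 16160 normalized counts in HFD and 15162 to 33622 in ND. Mitochondrially encoded genes were lower in 13 of 13, 2 of them without overlap, and summed to 292397 to 406238 normalized counts in HFD and 343419 to 581007 in ND. The highest sum was that of ND 1, whereas ND 3 and ND 4, at 375049 and 343419, lay within the HFD range. Mural and fibroblast markers were lower in 10 of 15, 2 of them without overlap, and summed to 1098 to 3638 normalized counts in HFD and 1045 to 11141 in ND, where ND 3 was the highest. Epithelial markers were lower in 11 of 13 tested genes, 1 of them without overlap, and white blood cell markers in 6 of 8, of which 0 were without overlap. ND 3 had the highest sum of both lists. Epithelial sums were 4503 in ND 1 and 8087 in ND 4, against 4818, 6486 and 18951 in HFD 2, HFD 4 and HFD 5. White blood cell sums were 243 in ND 1 and 369 in ND 4, against 399, 180 and 230 in HFD 2, HFD 4 and HFD 5. The sums of the mitochondrial, mural and fibroblast, epithelial, white blood cell and lymphatic lists overlapped between the diets. The part of these levels in the difference of Inpp5b was not tested.

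In the GRCm38 assembly, Inpp5b (ENSMUSG00000028894.18) lies on chromosome 4 from 124741850 to 124801511 on the plus strand, with 4.66 kb of exon. Other annotated genes share 2.71% of its exonic bases, namely the noncoding Gm12915 on the opposite strand and the microRNA gene Mir698. Gm12915 had 8.05 to 18.0 normalized counts in HFD and 0 to 13.1 in ND. The 250 bases before its start, chr4:124741600-124741849 on the plus strand, are printed because Inpp5b is the gene picked for its difference between the diets. They come from RefSeq for GRCm38.p6, 5′ to 3′, and capitals mark a match to GGGCGG, the GC box bound by SP1-type factors.
Inpp5b promoter: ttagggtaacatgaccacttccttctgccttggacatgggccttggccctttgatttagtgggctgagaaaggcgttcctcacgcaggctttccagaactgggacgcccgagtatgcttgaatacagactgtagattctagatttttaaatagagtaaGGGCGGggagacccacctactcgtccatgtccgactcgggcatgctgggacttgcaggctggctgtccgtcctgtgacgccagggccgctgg
This was 1 match on either strand, and 32.9% of 27025 promoter windows of this length hold at least 1. All 10 genes had a promoter entry, and 6 of them held the GC box in the first window listed. G and C made up 54.4% to 71.2% of the bases in the first windows of the 10, against a median of 52.0% over all windows. CCAAT was found in 2 of the 10, against 34.5% of all windows. TATAAA was found in 0 of the 10, against 12.97% of all windows. A match or its absence describes the letters of this window only.

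**Figure D1:**
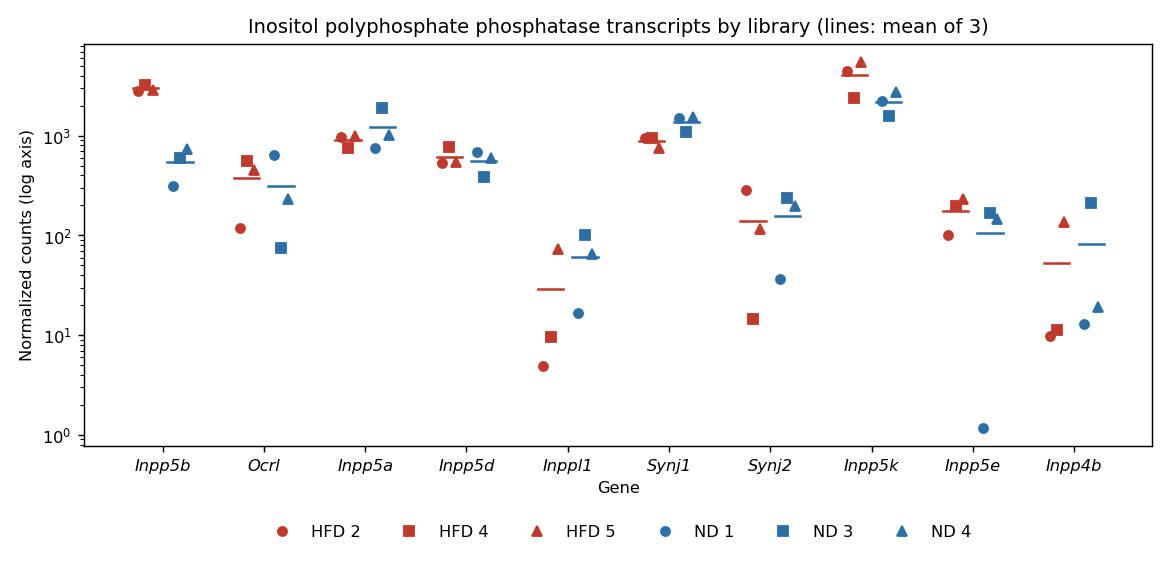
Normalized counts (log axis) of the 10 transcripts in each library, HFD in red at the left and ND in blue at the right of each gene, with a line at the mean of 3 libraries. The HFD values of Inpp5b, 2814 to 3239, lie above its ND values of 313 to 729, the HFD values of Synj1 lie below its ND values, and the other 8 genes overlap.

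Each of the other 9 genes passed the filter on low values, and none of them passed the test between diets. The test was limma with Benjamini-Hochberg adjustment over all 15655 genes, and the adjusted p of the 9 ran from 0.639 for Inpp5k to 0.950 for Inpp4b. It called 0% of all genes higher and 0% lower, with a smallest adjusted p of 0.276. At an unadjusted p under 0.05 it held 0 of the 9 genes, against 5.56% of all genes higher and 2.36% lower in HFD. The quasi-likelihood test of edgeR and limma-voom on whole reads called 0 genes of all those tested, and DESeq2 called 217 genes (1.39%) higher and 98 (0.626%) lower, of which 0 were among the 9, with no adjusted p given there for Inpp4b. Of all 15655 tested genes, 8261 were higher and 7394 lower in HFD by sign. Among the 9, 4 were higher and 5 lower, with a median log2 difference of −0.33 against 0.05 for all tested genes. That median was −0.57 to 0.066 in the fits without 1 library, turning positive without HFD 2, and −0.17 by edgeR. One gene of the 9, Synj1, was lower in HFD without overlap, against that 5.93% of all genes, and 0 were higher without overlap.

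Ocrl is the nearest relative of Inpp5b and encodes a phosphatase of endosomes and the trans-Golgi network whose loss causes Lowe syndrome in humans. Ocrl had 118, 556 and 449 normalized counts in HFD 2, HFD 4 and HFD 5, against 637, 74.8 and 230 in ND 1, ND 3 and ND 4. The diets overlapped, and both the highest and the lowest library were ND. The log2 difference of HFD minus ND was 0.47 ± 0.93 (SE, limma adjusted p = 0.930), and it was −0.31 without ND 3 and 1.23 without ND 1. Per kb of exon, Inpp5b was 48.4, 11.9 and 13.1 times as high as Ocrl in HFD 2, HFD 4 and HFD 5, against 1.00, 16.4 and 6.45 times in ND 1, ND 3 and ND 4. The ratio therefore overlapped between the diets through ND 3, where Ocrl was at its lowest. Ocrl (ENSMUSG00000001173.15) lies on chromosome X from 47912387 to 47965868.

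Inpp5a encodes the phosphatase that acts on soluble inositol trisphosphate and ends its calcium signal. Inpp5a had 975, 755 and 991 normalized counts in HFD 2, HFD 4 and HFD 5, against 748, 1885 and 1025 in ND 1, ND 3 and ND 4. The HFD libraries lay between the lowest and the middle ND library, and ND 3 was the highest of all. The log2 difference was −0.33 ± 0.41 (SE, limma adjusted p = 0.878) and turned to 0.040 without ND 3. Inpp5a (ENSMUSG00000025477.14) lies on chromosome 7 from 139389109 to 139579652, and Nkx6-2 on the opposite strand shares 4.35% of its exonic bases.

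The SHIP enzymes Inpp5d and Inppl1 act on the lipid product of PI3-kinase. Inpp5d, best known from blood cells, had 528, 767 and 546 normalized counts in HFD 2, HFD 4 and HFD 5, against 683, 388 and 594 in ND 1, ND 3 and ND 4. The diets overlapped, with a log2 difference of 0.16 ± 0.39 (SE, limma adjusted p = 0.948), which was −0.0079 without HFD 4 and −0.074 without ND 3. Ptprc, which encodes CD45 of white blood cells, had 13.6 to 14.5 normalized counts in HFD and 11.8 to 17.1 in ND, and Coro1a, a white blood cell actin regulator, at most 2.88 in HFD and 3.21 in ND. Other markers of that list varied more. Cd68, of macrophages, had 0.720 to 131 normalized counts in HFD and 15.0 to 164 in ND, and Csf1r, a macrophage receptor, had 2.88 to 14.5 in HFD and 1.18 to 128 in ND. Cd79a, of B cells, had 0 to 7.25 normalized counts in HFD and 3.56 to 39.0 in ND, and Laptm5, a lysosomal protein of blood cells, had 1.44 to 54.4 in HFD and 2.38 to 12.8 in ND. ND 3 had the lowest Inpp5d and the highest sum of white blood cell markers, 6605 normalized counts, of which Lyz2 alone gave 6388. The part of white blood cells in the level of Inpp5d was not tested. Inpp5d (ENSMUSG00000026288.14) lies on chromosome 1 from 87620312 to 87720507, and 0% of its exonic bases are shared with another gene.

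Inppl1, known for its part in insulin signalling, was among the lowest transcripts of the family. Inppl1 had 4.86, 9.66 and 73.4 normalized counts in HFD 2, HFD 4 and HFD 5, against 16.5, 102 and 65.3 in ND 1, ND 3 and ND 4. HFD 5 lay within the ND range and the other HFD libraries below it. The log2 difference was −1.56 ± 1.23 (SE, limma adjusted p = 0.776), and it was −2.64 without HFD 5 and −0.81 without HFD 2. Inppl1 (ENSMUSG00000032737.13) lies on chromosome 7 from 101822632 to 101838229, and other genes share 20.3% of its exonic bases. Most of these belong to the antisense gene Gm10602, which had 148 normalized counts in HFD 2 and 1.61 to 5.91 in the other libraries. Inppl1 was at its lowest in HFD 2, and the part of Gm10602 reads in its values was not tested.

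The synaptojanins couple a 5-phosphatase domain to a phosphatase domain of another kind and act in clathrin-mediated endocytosis, Synj1 chiefly at synapses and Synj2 more broadly. Synj1 had 949, 951 and 752 normalized counts in HFD 2, HFD 4 and HFD 5, against 1515, 1096 and 1555 in ND 1, ND 3 and ND 4. Every HFD library lay below every ND library, the nearest pair being HFD 4 and ND 3. The mean was 884 ± 114 normalized counts in HFD and 1389 ± 254 in ND (SD, n = 3 each), and the log2 difference was −0.64 ± 0.31 (SE). Synj1 did not pass limma (unadjusted p = 0.0749, adjusted p = 0.650). The sign of its difference was negative in each fit without 1 library, at −0.80 to −0.53. Synj1 (ENSMUSG00000022973.18) lies on chromosome 16 from 90936092 to 91011308 and shares 0.742% of its exonic bases with another gene.

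Synj2 had 288, 14.5 and 117 normalized counts in HFD 2, HFD 4 and HFD 5, against 36.6, 237 and 198 in ND 1, ND 3 and ND 4. Both the highest and the lowest library were HFD. The log2 difference was −0.59 ± 1.24 (SE, limma adjusted p = 0.937), and it was 0.60 without HFD 4 and −1.51 without HFD 2. Synj2 (ENSMUSG00000023805.17) lies on chromosome 17 from 5941280 to 6044290, and Serac1 on the opposite strand shares 3.56% of its exonic bases.

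Inpp5k encodes SKIP, a phosphatase of the endoplasmic reticulum that restrains insulin signalling in muscle. Inpp5k had 4453, 2402 and 5462 normalized counts in HFD 2, HFD 4 and HFD 5, against 2223, 1566 and 2767 in ND 1, ND 3 and ND 4. HFD 2 and HFD 5 lay above all ND libraries, and HFD 4 lay below ND 4. The mean was 4106 ± 1559 normalized counts in HFD and 2185 ± 601 in ND (SD, n = 3 each), with a log2 difference of 0.87 ± 0.38 (SE). Inpp5k did not pass limma (unadjusted p = 0.0561, adjusted p = 0.639), and its difference was 0.62 to 1.21 in the fits without 1 library. Inpp5k (ENSMUSG00000006127.9) lies on chromosome 11 from 75630988 to 75648871, and 0% of its exonic bases are shared.

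Inpp5e encodes a phosphatase of the primary cilium that is mutated in Joubert syndrome in humans. Inpp5e had 101, 199 and 234 normalized counts in HFD 2, HFD 4 and HFD 5, against 1.18, 168 and 147 in ND 1, ND 3 and ND 4. ND 1 held 1 read of this gene, and the other ND libraries lay within the HFD range. The log2 difference of 2.15 ± 1.66 (SE, limma adjusted p = 0.770) rested on ND 1, since it was 0.091 without that library, and it was 0.75 by edgeR on whole reads. Inpp5e (ENSMUSG00000026925.16) lies on chromosome 2 from 26396249 to 26409203, and Pmpca on the opposite strand shares 20.3% of its exonic bases. Pmpca had 348, 424 and 1098 normalized counts in HFD 2, HFD 4 and HFD 5, against 968, 13.9 and 156 in ND 1, ND 3 and ND 4. It was high both in HFD 5, where Inpp5e was at its highest, and in ND 1, where Inpp5e had its single read. The part of Pmpca reads in the Inpp5e values was not tested.

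Inpp4b encodes the 4-phosphatase of the list, which acts on a lipid downstream of PI3-kinase. Inpp4b had 9.71, 11.3 and 136 normalized counts in HFD 2, HFD 4 and HFD 5, against 12.99, 214 and 19.01 in ND 1, ND 3 and ND 4. One library of each diet, HFD 5 and ND 3, was far above the other libraries. The log2 difference was −0.58 ± 1.46 (SE, limma adjusted p = 0.950), and it was 0.066 without HFD 2, 0.65 without ND 3 and −1.77 without HFD 5. Inpp4b (ENSMUSG00000037940.17) lies on chromosome 8 from 81342556 to 82127914, and 0% of its exonic bases are shared.

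**Figure D2:**
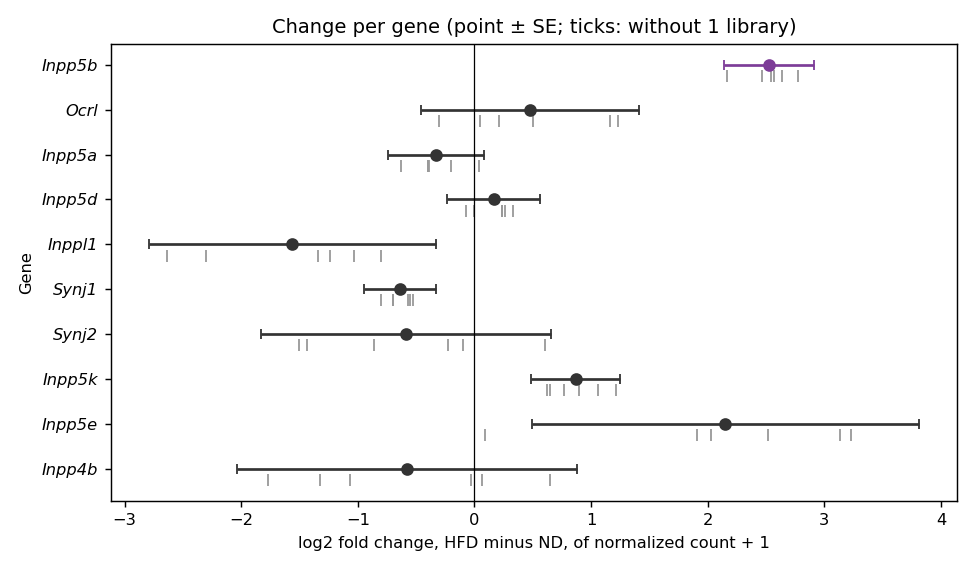
Difference of HFD minus ND in log2(normalized count + 1) for each gene, as a point with its SE and, below it, ticks for the values without 1 library. The ticks of Ocrl, Inpp5a, Inpp5d, Synj2 and Inpp4b fall on both sides of 0. Inpp5b (purple) was picked for this difference, and its ticks of 2.17 to 2.77 are a description.

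The 10 genes differed widely in their spread between libraries of the same diet. The residual SD on the log2 scale was 0.24 for Synj1, 0.37 for Inpp5d, 0.46 for Inpp5b, 0.50 for Inpp5a and 0.53 for Inpp5k. It was 1.38 for Ocrl, 1.65 for Inppl1, 1.85 for Synj2, 2.11 for Inpp4b and 2.56 for Inpp5e. The median over all tested genes was 0.81. The genes of small spread were also the 5 more abundant ones. Among all tested genes the median residual SD was 1.64 at a mean of 10 to 200 normalized counts, 0.75 at 200 to 1000 and 0.42 at 1000 to 5000. The SE of the diet difference was 0.93 to 1.66 for the 5 genes of large spread, above the differences of Synj1 and Inpp5k in size, so differences of that size were not detectable for them with 3 libraries a diet.

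Levels of different genes were compared as normalized counts per kb of exon. Inpp5k was the highest of the 10 in both diets, at 717 ± 272 per kb in HFD and 381 ± 105 in ND (SD, n = 3 each). In HFD it was followed by Inpp5b at 640 ± 48.6 per kb, whose values of 604 to 695 lay inside the range of Inpp5k. Below them came Inpp5a at 161 ± 23.3, Synj1 at 109 ± 14.1 and Inpp5d at 80.7 ± 17.5 per kb in HFD. In ND the order was Inpp5a at 216 ± 105, Synj1 at 172 ± 31.5, Inpp5b at 118 ± 45.8 and Inpp5d at 73.0 ± 19.9 per kb. Neighbours in the ND order overlapped in range over the whole list. In the HFD order the ranges of Inpp5b and Inpp5a, of Inpp5a and Synj1, and of Inpp5d and Inpp5e did not overlap, and those of the other neighbours did. The 5 lower genes averaged between 4.01 per kb, for Inpp4b in HFD, and 41.4 per kb, for Inpp5e in HFD.

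Inpp5b made up 33.3%, 44.1% and 30.3% of the summed level per kb of the 10 genes in HFD 2, HFD 4 and HFD 5, against 7.15%, 12.5% and 13.2% in ND 1, ND 3 and ND 4. Its rank among the 10 was 1 or 2 in each HFD library and 4 or 5 in each ND library. Since Inpp5b is in the sum, each other share depends on its value. Synj1 gave 6.16% ± 1.49 in HFD and 16.4% ± 3.40 in ND (SD, n = 3 each), and Inpp5k gave 38.6% ± 10.6 in HFD and 36.2% ± 8.36 in ND. Without Inpp5b the 9 others summed to 1209, 881 and 1431 per kb in HFD 2, HFD 4 and HFD 5, against 873, 901 and 1029 in ND 1, ND 3 and ND 4, and these values overlapped. Against all 23148 genes with a known exonic length, Inpp5b stood at percentile 91.9 to 93.6 of the level per kb in HFD and at percentile 70.8 to 81.6 in ND.

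**Figure D3:**
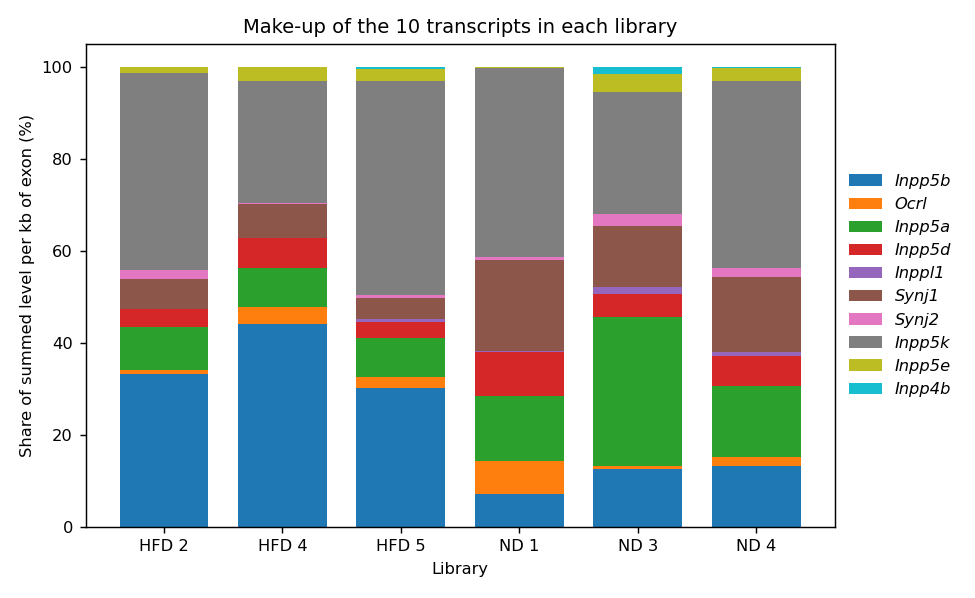
Share (%) of each of the 10 genes in their summed normalized counts per kb of exon, one bar per library with HFD libraries at the left. The Inpp5b share is 30.3% to 44.1% in the HFD bars and 7.15% to 13.2% in the ND bars, and Inpp5k has rank 1 or 2 in all 6.

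Of 10345 other genes with a proper gene name and an average of 50 normalized counts or more, those most like Inpp5b across the 6 libraries were Dbt, Kptn and Snrnp35. Likeness was the root mean square difference of log2 values after centring each gene on its own mean, which was 0.25, 0.28 and 0.31 log2 units. Dbt, a subunit of the mitochondrial enzyme complex that breaks down branched-chain amino acids, had 228, 399 and 291 normalized counts in HFD 2, HFD 4 and HFD 5, against 24.8, 43.8 and 73.7 in ND 1, ND 3 and ND 4. Like Inpp5b it was lowest in ND 1 and highest in HFD 4. This choice followed the values of Inpp5b, so the diets are not compared for these genes.

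The wider phosphoinositide pathway was described with 11 lists that held 145 genes of the table, of which 133 passed the filter. In limma 0 of the 133 were called, and 10 higher and 2 lower genes had an unadjusted p under 0.05, where 5.56% of all genes were higher and 2.36% lower. No overlap between the diets was seen for 16 higher (8.12% of all genes) and 6 lower genes (5.93% of all genes). With equal column totals these were 12 higher and 6 lower genes, and over the whole table the balance turned, to 1015 higher and 1198 lower genes without overlap, against 1271 and 929. In sign, 71 of the 133 were higher and 62 lower, against 8261 higher and 7394 lower of all 15655 tested genes. With equal column totals the 71 and 62 became 60 and 73. The median log2 difference over the 133 was 0.064, against 0.05 for all tested genes, and with equal column totals it was −0.053, against −0.06 for all tested genes. The median per list lay between −0.31 for the PI4- and PIP-kinases and 0.35 for the inositol phosphate kinases and IP3 receptors, except for the cilium partners of INPP5E. Both of these medians changed sign among the fits without 1 library, at −0.53 to 0.068 for the PI4- and PIP-kinases and −0.16 to 0.57 for the inositol phosphate kinases and IP3 receptors. Of 9 tested cilium partners 7 were higher in HFD, with a median of 0.94 that was 0.88 to 1.22 without 1 library, but 0 were without overlap. By edgeR the median was 0.64, with 6 of the 9 higher, and 1 gene was without overlap under TMM scaling, equal column totals or thinned reads. Pde6d, which carries INPP5E towards the cilium, had 2190, 2943 and 2280 normalized counts in HFD 2, HFD 4 and HFD 5, against 2193, 1312 and 801 in ND 1, ND 3 and ND 4.

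**Figure D4:**
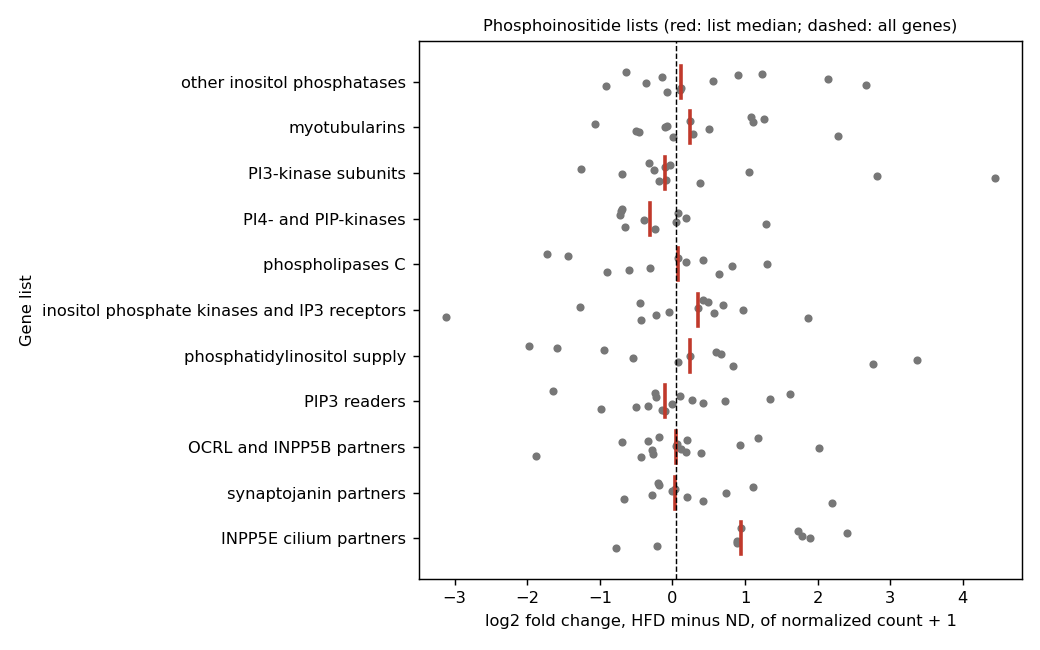
Difference of HFD minus ND in log2(normalized count + 1) of each tested gene (grey point) of the 11 phosphoinositide lists, with the list median in red and the median of all tested genes dashed at 0.05. List medians lie at −0.31 to 0.35, apart from 0.94 for the cilium partners of INPP5E, and single genes spread from −3.12 to 4.45.

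The genes of smallest p in each list were named whatever their direction, and their limma adjusted p ran from 0.472 to 0.789. A lack of overlap between the diets among them follows in part from that choice. Among proteins that work with the phosphatases, Rab8a, a Rab bound by OCRL and INPP5B, had 2247, 2042 and 3566 normalized counts in HFD 2, HFD 4 and HFD 5, against 1214, 1302 and 1487 in ND 1, ND 3 and ND 4. Rab1b of the same list had 1334, 2038 and 2245 normalized counts in HFD 2, HFD 4 and HFD 5, against 107, 1235 and 676 in ND 1, ND 3 and ND 4. Its log2 difference of 2.02 ± 0.86 (SE) was 1.00 without ND 1. Sh3gl1, an endophilin of the family that recruits synaptojanin, had 299, 341 and 724 normalized counts in HFD 2, HFD 4 and HFD 5, against 92.1, 60.9 and 132 in ND 1, ND 3 and ND 4. These 3 genes were higher in HFD without overlap, as was Snx9 at 1.11 ± 0.43 (SE) and as were 8.12% of all tested genes. DESeq2, which called 1.39% of all genes higher, called Sh3gl1 at an adjusted p of 0.0284. The range of the Sh3gl1 adjusted p over the other tests and settings was 0.420 to 0.842.

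The other named genes of the lists varied in direction. Isyna1, which makes inositol from glucose phosphate, had 273, 208 and 523 normalized counts in HFD 2, HFD 4 and HFD 5, against 9.45, 37.4 and 66.5 in ND 1, ND 3 and ND 4. It was, with Sh3gl1, 1 of 2 listed genes of the 133 called by DESeq2 (adjusted p = 0.0185), which called 1.39% of all genes higher, and over the other tests and settings its adjusted p was 0.352 to 0.828. Pitpnc1, a phosphatidylinositol transfer protein, was the most abundant named gene, with 12875, 12766 and 18085 normalized counts in HFD 2, HFD 4 and HFD 5, against 10146, 7809 and 9360 in ND 1, ND 3 and ND 4. Itpk1, an inositol phosphate kinase, had 3.88, 14.5 and 28.1 normalized counts in HFD 2, HFD 4 and HFD 5, against 83.9, 298 and 55.8 in ND 1, ND 3 and ND 4. Pik3r2, a regulatory subunit of PI3-kinase, had 34.0, 83.8 and 57.6 normalized counts in HFD 2, HFD 4 and HFD 5, against 0, 1.07 and 7.13 in ND 1, ND 3 and ND 4, so its fitted difference depends on the pseudocount. The 0 reads in ND 1 allow a level of up to 3.54 normalized counts, by counting error alone. Of the remaining named genes, Bpnt1, Mtmr14, Pik3r3, Plcg1 and Prex1 were higher and Mtmr9 lower in HFD without overlap, with log2 differences of 0.91, 1.09, 2.82, 0.83, 1.62 and −1.07. These genes were picked by their small p, and over all tested genes 8.12% were higher and 5.93% lower without overlap. The Pik3r3 difference was 1.35 without ND 3, and that of Mtmr14 was 0.67 without ND 1. Pip4p1, Pip4k2a, Pikfyve, Plcl1, Ppip5k2 and Rpgr overlapped between the diets.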

How the data were processed

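RNA was measured in 6 libraries of lung endothelial cells, 3 HFD and 3 ND, each from a separately numbered mouse. Per the labels' protocols, reverse transcription used oligo(dT) primers and template switching, followed by PCR. No molecular identifiers are mentioned, and PCR from 500 cells can add spread between libraries whatever their depth. Bowtie 1.0.0, cutadapt, DESeq2, FastQC 0.11.7, HTSeq 0.6.1, SAMtools 0.1.19 and TopHat2 2.0.10 are named for the GRCm38 build, per the submitters' processing notes, without a role or order. The annotation used for counting, and the strand setting, were not given in the sources used here, and reads of genes that overlap on opposite strands cannot be assigned. The table deposited by the authors holds 23345 genes as a normalized signal, meaning read counts per gene over a library size factor. Each column carries the diet letter and mouse number of 1 sample.

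Whole reads were recovered from the step of 1 read in each column (100% of values whole within a tolerance of 1e-06). Values were tested as log2(value + 1), over 15655 genes with a mean of at least 10, with limma 3.58.1 in R 4.3.3, two-sided, with an intensity trend, no covariates and Benjamini-Hochberg adjustment at 0.05. Differences on this scale understate those of low genes. edgeR 4.0.16, DESeq2 1.42.0 and limma-voom were run on the recovered reads. Other alternatives were pseudocounts of 0.5 and 5, minimum means of 1 and 50 and no filter, TMM scaling, equal totals, thinned reads, sample quality weights and each library left out. Lengths and positions are from GENCODE M21, where 23148 of the 23345 symbols had a single match, and promoters are from RefSeq. Sharing of exonic bases was the overlap of annotated exons with those of another gene on either strand of the genome. Sharing of 50-base stretches was the exact match of 50 bases of a gene's transcripts to those of any other gene.

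The members, the lists and the rule for named genes were chosen with earlier results of these data known. Named were the 10 members, the 2 genes of smallest p in each of 11 pathway lists and the 3 genes most like Inpp5b, of which 1 pathway gene is not reported here. Counting floors cover counting error only.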

Additional observations from a re-analysis of the deposited data

How the results depend on the processing

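The Inpp5b difference was 2.17 to 2.77 log2 units over 18 alternatives, and since the gene was picked for it this is no sign of stability. None of the other 9 genes passed the threshold in any alternative that gave an adjusted p, which DESeq2 did not for Inpp4b. All changes of sign came from leaving out 1 library, which gave −0.31 to 1.23 for Ocrl, −0.63 to 0.040 for Inpp5a, −0.074 to 0.33 for Inpp5d, −1.51 to 0.60 for Synj2 and −1.77 to 0.65 for Inpp4b. Genes called over the whole table numbered 0 with limma, edgeR and limma-voom and under each scaling, filter and left-out library, against 315 with DESeq2, and listed pathway genes 0 against 2 with DESeq2. Genes without overlap numbered 1744 to 2428 higher and 1542 to 1848 lower with 1 library left out, which by construction leaves fewer libraries to overlap. Those lower without overlap numbered 1521 where a mean of 1 sufficed, 1529 without any filter and 589 where a mean of 50 was required, and the number of genes tested differs between these settings. With the longest transcript as length, 6 of 10 genes kept their rank in HFD and 8 in ND, and the top 5 kept theirs in both diets. Equal column totals moved the median log2 difference of all genes from 0.05 to −0.06 and turned the sign of 0 of the 10 genes. Inppl1 had no value at a minimum mean of 50. No paired analysis was possible because the diets share a single mouse number, 4, which names different animals. Depth and 3 libraries a diet limit the genes of low level, and 1 read of Inpp5e in ND 1 set its difference.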

Other observations

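The protein-coding neighbours of Inpp5b were looked up by position, whatever their values. Mtf1, a metal-responsive transcription factor gene on the same strand, starts 592 bases beyond the annotated end of Inpp5b, on chromosome 4 from 124802104 to 124849800. Mtf1 had 257, 317 and 64.8 normalized counts in HFD 2, HFD 4 and HFD 5, against 549, 918 and 327 in ND 1, ND 3 and ND 4. It was thus lower in HFD without overlap, as were 5.93% of all tested genes. Its log2 difference was −1.65 ± 0.73 (SE, limma adjusted p = 0.639), and it was −0.94 without HFD 5. Sf3a3, a splicing factor gene that ends 9389 bases before Inpp5b, had 1990, 1756 and 2791 normalized counts in HFD 2, HFD 4 and HFD 5, against 2101, 1335 and 2078 in ND 1, ND 3 and ND 4, and its groups overlapped. The log2 difference of Sf3a3 was 0.25 ± 0.32 (SE, limma adjusted p = 0.881). A relation between the levels of these neighbours and that of Inpp5b was not tested.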
